A study of Rattus norvegicus with 12 samples.

Results

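Cyclic stretch of Tsp1 knockout (KO) aortic smooth muscle cells was examined in the 6 libraries titled Tsp1KO_stretch and Tsp1KO_static, numbered 1 to 3 in each condition, out of 12 libraries in the series. The other 6 libraries are wild-type (WT) cells, stretched or static, and served here to estimate the spread and to set the KO response beside the WT one. KO stretch cells lacked an intact Thbs1 gene and were pulled along one axis by 20% strain, 60 times a minute (1.0 Hz); KO static cells carried the same knockout and were left unstretched. WT stretch and WT static cells had the same 2 treatments. All were primary Wistar rat aortic smooth muscle cells bought from a supplier, grown in 20% serum and used at passages 5 to 8. Stretch was applied on silicone elastomer after 24 h without serum; whether the static cells were also starved and plated on elastomer, and how long stretch lasted, is not given in the sources used here, so starvation and stretch cannot be told apart if they were not. The knockout was made with a plasmid that carries Cas9, GFP and a guide RNA; GFP-positive cells were sorted and cloned by limiting dilution, and how many clones entered the libraries is not stated. Whether the 3 libraries of each group are separate cultures is not stated, so p-values reflect only how much these particular samples varied, possibly for technical reasons.

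Vascular smooth muscle cells in the aortic wall are stretched with every heartbeat and convert this load into changes of adhesion, cytoskeleton, matrix and metabolism. Thrombospondin-1 (Tsp1), the product of Thbs1, is a secreted matricellular protein that binds integrins and the receptor Cd47 and activates latent TGF-beta. Cultured smooth muscle cells also make their own cholesterol: when sterols in the endoplasmic reticulum are low, the transcription factor SREBP2 (gene Srebf2) is released from the anchor protein INSIG1 and switches on the enzymes of the mevalonate and sterol branches.

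Thbs1, the targeted gene, still gave reads in all KO libraries. It had 435, 419 and 283 CPM in KO stretch libraries, against 588, 637 and 443 CPM in KO static libraries. The counts therefore do not check the knockout, since a small mutation can leave a transcript that is still counted. WT cells had 1437 ± 342 CPM under stretch and 2661 ± 547 CPM when static (mean ± SD, n = 3 each; CPM is exon reads per 1e6, after TMM scaling of the library sizes). The KO stretch and KO static values did not overlap, and the log2 fold change was -0.55 ± 0.23 (± SE) without and -0.57 ± 0.068 with library number as a block. Its false discovery rate (FDR, edgeR quasi-likelihood test with Benjamini-Hochberg adjustment) was 0.576 without and 0.000609 with the block.

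In units of 1e6 exon reads, the KO stretch libraries held 24.5, 19.9 and 35.5, and the KO static libraries 18.6, 24.1 and 38.0. KO stretch library 3 stood apart: 83.1% of its exon reads mapped uniquely and 16.4% spanned an exon junction, against 87.2% to 89.1% and 28.1% to 28.4% in the other KO libraries. Intron reads were 9.15% of gene reads in KO stretch library 3 and 10.4% in KO static library 3, against 16.1% to 16.5% in the KO libraries numbered 1 and 2. Each call was therefore also tested on unique reads and without KO stretch library 3. The cells carried smooth muscle transcripts, mostly Tagln and Acta2. The 10 smooth muscle markers summed to 3284 to 4406 CPM in KO stretch libraries and 3969 to 5002 CPM in KO static libraries. All 10 were tested and none was at 0, but their levels differed widely. Myh11, Mylk, Des and Actg2 were the lowest, with at most 29.2, 11.5, 3.93 and 3.05 CPM in any KO library. Of 12 endothelial markers 11 were in the table, mostly Egfl7, summing to 35.05 to 40.1 CPM under stretch and 32.0 to 40.7 CPM static, and Cldn5 was at 0 in all KO libraries. Leukocyte markers, mostly Cd14, summed to 28.1 to 34.1 CPM under stretch and 27.6 to 33.8 CPM static, Schwann cell markers to 9.03 to 12.3 CPM and 7.48 to 13.0 CPM, adipocyte markers to 1.52 to 2.57 CPM and 1.88 to 2.64 CPM, and skeletal and cardiac muscle markers to 19.9 to 26.7 CPM and 22.9 to 27.7 CPM. Fibroblast markers, many of which cultured smooth muscle cells also express, summed to 846 to 937 CPM under stretch and 893 to 980 CPM static, and osteochondrogenic markers, mostly Spp1, to 2215 to 2691 CPM and 2440 to 2950 CPM. Epithelial and mesothelial markers summed to 54.0 to 70.6 CPM under stretch and 70.9 to 82.7 CPM static, without overlap; 3 of the 9 tested (Cdh1, Krt8 and Upk3b) were lower with the block, and their part in the results below was not tested.

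Stretch of KO cells lowered more genes than it raised. Of 14825 genes tested, 118 changed at FDR under 0.05, which is 0.796%; 87 fell (0.587%) and 31 rose (0.209%). At least 2-fold changes were found for 28 of them (0.189%), 24 lower and 4 higher. With library number as a block 656 genes passed (4.42%), 447 lower (3.02%) and 209 higher (1.41%), and all 118 were among them. Without a KO stretch library the count was 37, 24 and 62 (0.409%) for numbers 1, 2 and 3; without a KO static library it was 51, 38 and 55, and without WT stretch library 2 it was 66. A fit to the 6 KO libraries alone called no gene, with a smallest FDR of 0.0604 and an unadjusted p under 0.05 for 881 genes; adding the block called 757. The CPM values of KO stretch and KO static did not overlap for any of the 118 genes; 12.5% of all genes tested had groups that did not overlap. On unique reads 107 of 13992 genes passed (0.765%), 101 of them among the 118, and libraries numbered 1 and 2 alone gave 439. The authors' deposited table lists 101 genes at its own FDR under 0.05 for this comparison, and 69 of them are among the 118.

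Of the 118 genes, 23 stayed under an FDR of 0.05 in all 12 fits that each omit 1 library. The rises among them were Hsph1, Tnfaip6 and Mcam, and the falls named here were Slco2a1, Fmo2, Fmo4, Mybphl, Cilp, Dhcr7, Insig1, Acat2, Hmgcs1, Cyp51, Lss, Sqle, Csgalnact1, Itga3, Agtr1a, Amotl2, Fads1 and Tnfaip2. Every other call below was lost without at least 1 library. Without KO stretch library 3, 58 of the 118 passed, and 13 of 21 sterol synthesis enzymes. The calls named below that were lost without it were Mvd, Fads2, Acss2, Bmp3, Tlcd2, Icam1, Cxcl12, Thbd, Rassf4, Lmod1, F3, Wwc1, Egr1, Arc, Txnrd1, Chrnb4, Dusp1, Pmepa1, Ptk2, Cry1, Gja4, Ppid, Egln3, Il1rl1, Nox1, Angptl2, Tes, Ahsa2, Mill1, Mindy4 and Slc10a7. Of the 118, 5 were lost in all 12 fits. With the block, 110 of the 118 passed whichever of the 6 KO libraries was left out. Tnfaip2, a gene induced by tumour necrosis factor that was named after its values were seen, had 34.4, 32.7 and 32.2 CPM in KO stretch libraries, against 53.03, 50.8 and 54.5 CPM in KO static libraries (log2 fold change -0.67 ± 0.077, FDR 0.00375).

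**Figure D1:**
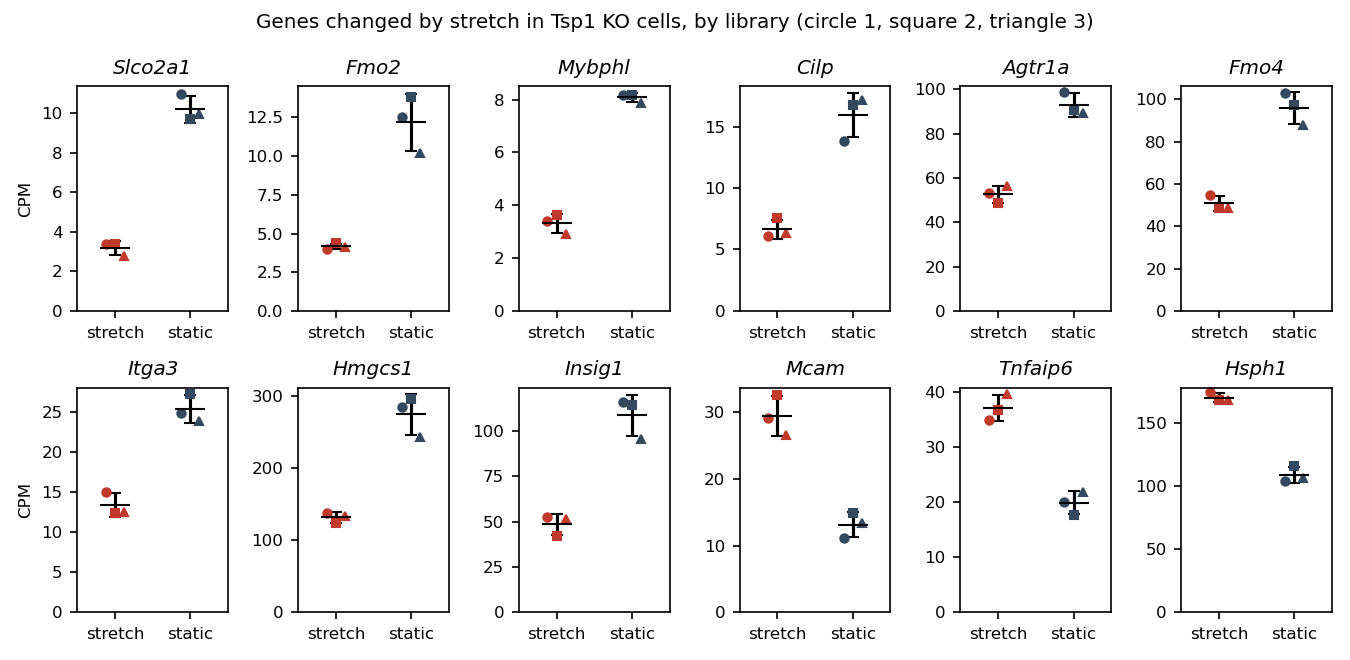
CPM (vertical axis, from 0) of 12 genes that changed, in KO stretch (red, left) and KO static (dark, right) libraries; symbols are library numbers 1 (circle), 2 (square) and 3 (triangle), and bars are the mean ± SD, n = 3. The stretch values lie wholly below the static values in the first 9 panels and wholly above them for Mcam, Tnfaip6 and Hsph1.

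Among the gene lists described here, cholesterol synthesis had the most members lowered by stretch. Of the 21 enzymes of the mevalonate pathway and the sterol branch that were tested, 14 fell and none rose, and 19 fell with the block. Their median log2 fold change was -0.79, against 0.00 (-0.0005) over all genes tested. All but 1 were lower under stretch in each of the 3 pairs of equal library number, with medians of -0.79, -0.97 and -0.66 for numbers 1, 2 and 3. On unique reads 13 of the 21 fell. Leaving out KO stretch library 2 left 7 calls, and leaving out KO stretch library 1 or KO static library 2 left 9 each.

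Regulatory sequence was read for these enzymes because they moved together. RefSeq promoters of the build GRCr8 were at hand for 16 of the 21, and the 250 bases before the gene start were searched on both strands for CCAAT, the box bound by NF-Y. It was found in 13 of 16 promoters (81.25%), against 35.43% of the 10662 tested genes that have a promoter in the same table. It was present in 7 of 10 that fell without the block and in 6 of 6 that did not pass. Mvk, Fdps, Tm7sf2 and Sc5d, among the latter, fell with the block. These counts therefore cannot tell whether the box separates enzymes that respond from those that do not. TCACNCCAC, one form of the sterol regulatory element, occurred in none of the 16 and in 1.013% of the tested genes. The following 80-base windows upstream of 5 enzymes that fell show the match in capitals (CCAAT, or ATTGG where it lies on the opposite strand), each 5′ to 3′ on the gene's strand.
Hmgcs1 promoter, chr2:53382111-53382190, GRCr8, plus strand: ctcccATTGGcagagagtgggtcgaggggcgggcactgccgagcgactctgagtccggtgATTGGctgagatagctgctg
Idi1 promoter, chr17:66547540-66547619, GRCr8, minus strand: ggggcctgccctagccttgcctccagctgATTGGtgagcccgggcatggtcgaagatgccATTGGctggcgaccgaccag
Lss promoter, chr20:12118293-12118372, GRCr8, minus strand: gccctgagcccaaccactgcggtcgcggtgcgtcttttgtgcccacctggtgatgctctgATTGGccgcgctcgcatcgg
Msmo1 promoter, chr16:29746985-29747064, GRCr8, plus strand: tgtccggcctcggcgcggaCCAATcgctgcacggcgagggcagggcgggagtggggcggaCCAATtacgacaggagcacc
Nsdhl promoter, chrX:155817235-155817314, GRCr8, plus strand: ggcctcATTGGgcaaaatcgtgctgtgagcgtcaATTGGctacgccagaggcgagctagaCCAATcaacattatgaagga

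The first steps of the pathway build mevalonate from acetyl-CoA. Acat2, the cytosolic acetoacetyl-CoA thiolase (chromosome 1, 47972398 to 47992653 on Rnor_6.0), had 35.03, 34.2 and 34.8 CPM in KO stretch libraries, against 73.6, 71.7 and 74.6 CPM in KO static libraries, a log2 fold change of -1.08 ± 0.11 (FDR 0.00198). Hmgcs1, the HMG-CoA synthase shown above (chromosome 2, 52431600 to 52445055), had 139, 124 and 134 CPM in KO stretch libraries, against 285, 297 and 243 CPM in KO static libraries. Its log2 fold change was -1.06 ± 0.097 (FDR 0.00182). The kinases Mvk and Pmvk missed the threshold without the block (FDR 0.157 and 0.569) and passed with it (0.000734 and 0.00935).

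Isoprenoid assembly moved likewise except at its side exit. Mvd, the decarboxylase, had 20.5, 17.1 and 20.7 CPM in KO stretch libraries, against 31.1, 32.6 and 40.3 CPM in KO static libraries (log2 fold change -0.84 ± 0.15, FDR 0.0281). Idi1, the isopentenyl diphosphate isomerase, had 33.0, 31.1 and 31.1 CPM in KO stretch libraries, against 66.4, 70.9 and 49.2 CPM in KO static libraries (log2 fold change -0.97 ± 0.13, FDR 0.00842). Fdps, farnesyl diphosphate synthase, passed only with the block (-0.79 ± 0.17, FDR 0.0825 without and -0.80 ± 0.082, FDR 0.000202 with it). Ggps1, which diverts farnesyl diphosphate to protein prenylation and away from sterols, was the one enzyme of the 21 with a positive value: 30.3, 29.9 and 22.9 CPM in KO stretch libraries, against 30.1, 26.4 and 20.2 CPM in KO static libraries, 0.12 ± 0.15 and not past the threshold in either fit. Its direction turned negative when KO static library 3 was left out.

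In the sterol branch, Fdft1 (squalene synthase) had 75.0, 71.3 and 89.5 CPM in KO stretch libraries, against 125, 126 and 137 CPM in KO static libraries and Sqle (squalene epoxidase) had 55.0, 49.6 and 58.3 CPM in KO stretch libraries, against 97.9, 102 and 93.2 CPM in KO static libraries; their log2 fold changes were -0.72 ± 0.11 and -0.85 ± 0.085 (FDR 0.0115 and 0.00198). Lss, lanosterol synthase, had 82.3, 71.6 and 75.8 CPM in KO stretch libraries, against 145, 147 and 122.8 CPM in KO static libraries (log2 fold change -0.85 ± 0.11, FDR 0.00506). No stretch value of these 3 enzymes reached a static one. Cyp51, the lanosterol demethylase, had 147, 130.4 and 163 CPM in KO stretch libraries, against 297, 295 and 283 CPM in KO static libraries, a log2 fold change of -0.99 ± 0.10 (FDR 0.00226). Msmo1, Nsdhl and Hsd17b7, which together remove the methyl groups at the fourth carbon, changed by -0.77 ± 0.12, -0.67 ± 0.11 and -0.99 ± 0.14 (FDR 0.0133, 0.0205 and 0.00842). Hsd17b7 did not pass on unique reads (FDR 0.0922), where under 50% of its reads remain. Dhcr7, the enzyme that closes cholesterol synthesis from its immediate precursor, had the largest change in the plot of pathway enzymes: 10.6, 8.66 and 13.0 CPM in KO stretch libraries, against 21.8, 25.9 and 26.9 CPM in KO static libraries, -1.21 ± 0.14 (FDR 0.00429). Tm7sf2 and Sc5d passed only with the block (FDR 0.00151 and 0.0081), and Ebp, the sterol isomerase, passed in neither fit (-0.21 ± 0.16).

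**Figure D2:**
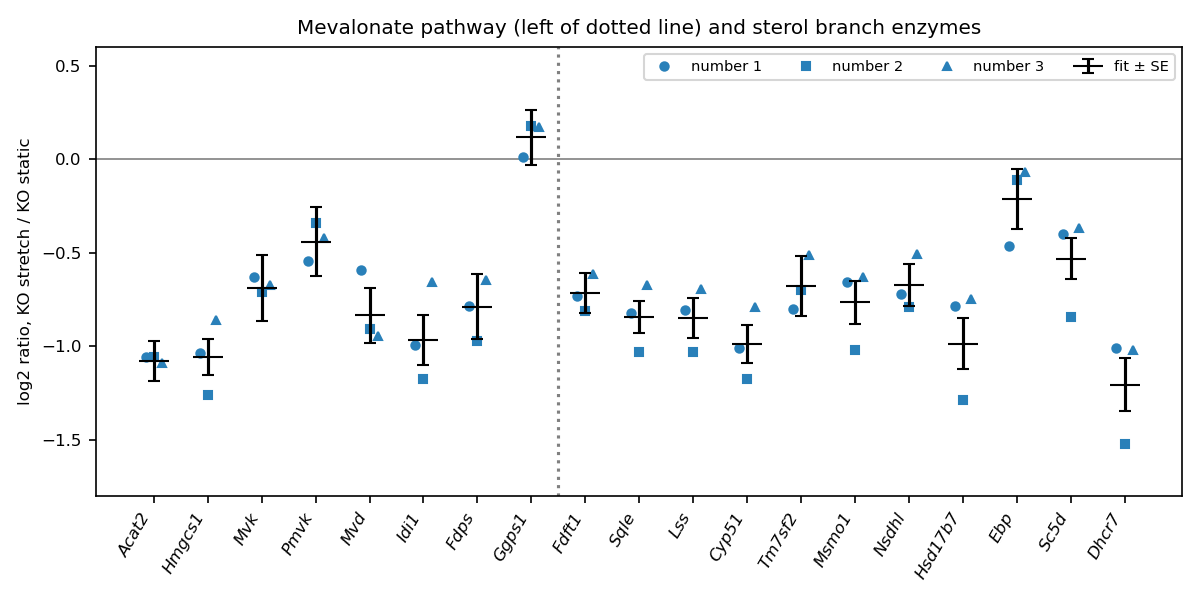
Log2 ratio of KO stretch over KO static (vertical axis) for 19 of the 21 tested enzymes, in pathway order, by library number (symbols) and as fitted over all libraries (bar ± SE). All but Ggps1 lie below 0, and Ebp and Ggps1 lie nearest to it.

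Genes that sense and import sterols fell in part. Of 24 tested in this list, 2 fell and none rose, and with the block 6 fell and 1 rose; the list's median log2 fold change was only -0.04, against 0.00 (-0.0005) over all genes. Insig1, the endoplasmic reticulum anchor of SREBP (chromosome 4, 342301 to 350515), had 52.4, 42.1 and 51.3 CPM in KO stretch libraries, against 116, 114 and 95.8 CPM in KO static libraries. Its log2 fold change was -1.16 ± 0.11 (FDR 0.00182), and under 50% of its reads were unique, on which it also passed (FDR 0.00468). With the block, Srebf2 itself (-0.44 ± 0.065, FDR 0.00206) was lower. Soat1, which esterifies cholesterol for storage, ran the other way: 109, 109.8 and 92.3 CPM in KO stretch libraries, against 65.5, 74.7 and 57.7 CPM in KO static libraries, with 0.65 ± 0.13, FDR 0.0511 without and 0.65 ± 0.054, FDR 7.28e-05 with the block, and it passed on unique reads (FDR 0.0346).

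Fatty acid genes followed the same direction with fewer calls. Of 23 tested, 5 fell and none rose, 9 fell with the block, and 22 had negative values, against 7435 of all 14825 genes tested. The median log2 fold change was -0.30. Scd, a stearoyl-CoA desaturase, had 22.0, 19.2 and 18.1 CPM in KO stretch libraries, against 46.1, 49.7 and 37.3 CPM in KO static libraries (log2 fold change -1.16 ± 0.15, FDR 0.00627). The desaturases of polyunsaturated fatty acids, Fads1 and Fads2, changed by -0.76 ± 0.097 and -0.66 ± 0.11 (FDR 0.00588 and 0.0213). Aacs and Acss2, which supply acetoacetyl-CoA and acetyl-CoA in the cytosol, changed by -0.73 ± 0.11 and -0.55 ± 0.093 (FDR 0.0119 and 0.0233). Fasn, the fatty acid synthase, passed only with the block (-0.44 ± 0.29, FDR 0.891 without and -0.46 ± 0.081, FDR 0.00656 with it), and its levels in library 3 lay below those of libraries 1 and 2 in both conditions.

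Single genes outside lipid synthesis fell as well. Slco2a1, the prostaglandin transporter (chromosome 8, 111495330 to 111577833 on Rnor_6.0), fell most among genes with a mean log2 CPM of at least 2 in the KO libraries: 3.37, 3.38 and 2.79 CPM in KO stretch libraries, against 11.0, 9.69 and 9.94 CPM in KO static libraries. Its fold change was 3.21-fold lower under stretch (log2 -1.68 ± 0.19, FDR 0.00375). Fmo2 and Fmo4 code for flavin-containing monooxygenases, which oxidise foreign and endogenous nitrogen and sulphur compounds, and both fell. Fmo2 had 4.01, 4.36 and 4.14 CPM in KO stretch libraries, against 12.5, 13.8 and 10.2 CPM in KO static libraries (log2 fold change -1.54 ± 0.18, FDR 0.00375). Fmo4 (16.2 RPKM under stretch and 30.4 RPKM static) had 54.8, 48.9 and 48.8 CPM in KO stretch libraries, against 103, 97.2 and 87.8 CPM in KO static libraries. Its log2 fold change was -0.92 ± 0.11 (FDR 0.00522).

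Among the other large falls, Cilp, a matrix protein that binds TGF-beta, had 6.10, 7.54 and 6.32 CPM in KO stretch libraries, against 13.9, 16.8 and 17.1 CPM in KO static libraries (log2 fold change -1.26 ± 0.17, FDR 0.00721). Bmp3, a secreted ligand of the BMP family, had 3.25, 3.67 and 2.35 CPM in KO stretch libraries, against 10.1, 8.83 and 5.67 CPM in KO static libraries and the highest static value was in library 1, the lowest in library 3. Its log2 fold change was -1.41 ± 0.25 (FDR 0.0295). Nlrp3, the inflammasome sensor, had 3.81, 2.69 and 4.36 CPM in KO stretch libraries, against 7.64, 10.2 and 7.50 CPM in KO static libraries (log2 fold change -1.21 ± 0.20, FDR 0.0222). Itga3, an integrin chain that binds laminin, had 15.1, 12.4 and 12.6 CPM in KO stretch libraries, against 24.9, 27.3 and 23.9 CPM in KO static libraries, a log2 fold change of -0.92 ± 0.11 (FDR 0.00429). Of 18 integrin genes it was the only one past the threshold, and Itga1 joined it with the block. Csgalnact1, which starts chondroitin sulphate chains, fell by 0.96 on the log2 scale (FDR 0.00762), Emp2 by 1.07 (FDR 0.0101) and Tlcd2 by 1.03 (FDR 0.0267). Agtr1a, the angiotensin II receptor of smooth muscle, was singled out after its values were seen: 53.1, 48.7 and 56.2 CPM in KO stretch libraries, against 99.0, 90.5 and 89.2 CPM in KO static libraries, -0.82 ± 0.099, FDR 0.00429.

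The 31 rises were fewer than the 87 falls and had a median log2 fold change of 0.64, against -0.78 for the falls. Mcam, the cell adhesion molecule CD146 (chromosome 8, 48472823 to 48481001), had 29.2, 32.7 and 26.6 CPM in KO stretch libraries, against 11.2, 14.9 and 13.4 CPM in KO static libraries. It was 2.23-fold higher under stretch (log2 1.16 ± 0.14, FDR 0.00427). Gja4, a gap junction protein of vessels, had 9.71, 11.1 and 12.9 CPM in KO stretch libraries, against 3.795, 4.79 and 6.30 CPM in KO static libraries (log2 fold change 1.17 ± 0.20, FDR 0.027). Of 19 adhesion and connexin genes these were the 2 that rose, Icam1 fell (-0.64 ± 0.10, FDR 0.0171), and Gja1, the main connexin of smooth muscle, rose with the block (0.34 ± 0.056, FDR 0.00404). Tnfaip6, which crosslinks hyaluronan, had 34.95, 36.7 and 39.7 CPM in KO stretch libraries, against 20.0, 17.7 and 21.9 CPM in KO static libraries (log2 fold change 0.90 ± 0.10, FDR 0.00375).

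Stmn4, a stathmin that binds tubulin, had the largest fold change of the 118 genes but a low level, 1.07 ± 0.173 CPM in KO stretch and 0.309 ± 0.0619 CPM in KO static libraries (SD, n = 3 each) (log2 fold change 1.80 ± 0.25, FDR 0.00842); it was named after its values were seen.

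Other single genes rose. Hsph1, a large chaperone of the heat shock family, had 175, 168 and 168 CPM in KO stretch libraries, against 105, 116 and 107 CPM in KO static libraries (log2 fold change 0.64 ± 0.077, FDR 0.00429). Of 29 heat shock and chaperone genes Hsph1 and Ppid rose, Cirbp, a cold-inducible RNA-binding protein kept in the same list, fell (-0.74 ± 0.11, FDR 0.0101), and the median log2 fold change was 0.09. Ppid passed on total reads (0.68 ± 0.12, FDR 0.0284) but not on unique reads (FDR 0.728), which are under 50% of its total. Egln3, a prolyl hydroxylase that marks hypoxia-inducible factor for degradation, had 39.1, 38.9 and 42.6 CPM in KO stretch libraries, against 24.9, 20.7 and 25.2 CPM in KO static libraries (log2 fold change 0.77 ± 0.14, FDR 0.0295). Il1rl1, a receptor of the interleukin 1 family, had 65.8, 84.3 and 71.3 CPM in KO stretch libraries, against 38.5, 50.1 and 38.0 CPM in KO static libraries (log2 fold change 0.81 ± 0.15, FDR 0.0341). Nox1, an NADPH oxidase, and its neighbour Cstf2 overlap on chromosome X and both rose (0.68 ± 0.12 and 0.70 ± 0.10, FDR 0.0312 and 0.0104); with the strand setting of the counting unknown, their shared reads cannot be told apart. Angptl2, a secreted glycoprotein, rose on total reads (0.56 ± 0.096, FDR 0.0256) and did not pass on unique reads; it overlaps Ralgps1, as Idi1 overlaps Wdr37, and neither of these neighbours passed the test. Tes, a LIM protein of focal adhesions, had 122, 137 and 141 CPM in KO stretch libraries, against 79.8, 84.3 and 88.5 CPM in KO static libraries (log2 fold change 0.66 ± 0.10, FDR 0.0164). Ripk2, a kinase of NOD receptor signalling, Ahsa2, an activator of the chaperone HSP90, and Wdr75, a ribosome assembly factor, rose by 0.60 ± 0.098, 0.58 ± 0.095 and 0.54 ± 0.089 on the log2 scale (FDR 0.0204, 0.0205 and 0.0213). Mill1, Mindy4 and Sh2d4a completed the leading rises, with log2 fold changes of 0.83 ± 0.14, 0.69 ± 0.13 and 0.59 ± 0.079 (FDR 0.0233, 0.036 and 0.00762).

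Cytokine and coagulation genes included further falls. Of 34 inflammasome, interleukin 1 and cytokine genes, Nlrp3, Cxcl12 and Icam1 fell and Il1rl1 rose, with a median log2 fold change of -0.07. Cxcl12, a chemokine made in bulk by these cells, had 791, 719.6 and 729 CPM in KO stretch libraries, against 1000, 1041 and 973 CPM in KO static libraries (log2 fold change -0.43 ± 0.078, FDR 0.0313). Icam1, a leukocyte adhesion receptor, had 82.8, 74.8 and 79.1 CPM in KO stretch libraries, against 113, 125 and 132 CPM in KO static libraries, and no stretched library reached a static one. Of 27 proteases and inhibitors, 2 fell. One of them, Thbd, thrombomodulin, which turns thrombin into an anticoagulant, had 27.9, 31.6 and 29.2 CPM in KO stretch libraries, against 41.7, 40.8 and 42.3 CPM in KO static libraries (log2 fold change -0.49 ± 0.096, FDR 0.042) and did not pass on unique reads (FDR 0.0621). Depp1, a target of FOXO factors, fell (-1.09 ± 0.19, FDR 0.0274); it overlaps Rassf4, which fell too, and neither passed on unique reads (FDR 0.292 and 0.0623).

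Contractile genes mostly had negative values under stretch in KO cells, 18 of 25 against 7435 of all 14825 genes tested, but few passed the test. Lmod1 fell and none rose, and no gene passed without KO stretch library 3; with the block 9 fell and Csrp2 rose. The list's median log2 fold change was -0.25 in KO cells, against 0.05 in WT cells and 0.00 (-0.0005) over all genes in KO cells. Lmod1, leiomodin, which nucleates actin filaments, had 60.7, 60.8 and 60.6 CPM in KO stretch libraries, against 82.3, 91.4 and 85.5 CPM in KO static libraries: its log2 fold change was -0.51 ± 0.083 (FDR 0.0205), and the 3 stretched libraries lay within 1 CPM of each other. Acta2, smooth muscle actin, had 829.9, 877 and 1039 CPM in KO stretch libraries, against 1134, 1271 and 1361 CPM in KO static libraries (log2 fold change -0.46 ± 0.11, FDR 0.144 without and -0.46 ± 0.069, FDR 0.00237 with the block). Ldb3, a protein of the Z line, had 15.4, 16.2 and 12.0 CPM in KO stretch libraries, against 24.3, 27.5 and 21.0 CPM in KO static libraries (log2 fold change -0.74 ± 0.17, FDR 0.112 without and -0.75 ± 0.095, FDR 0.000853 with the block). Tagln and Cnn1, by contrast, gave -0.11 ± 0.17 and -0.018 ± 0.14 and passed in neither fit. Csrp2, a LIM protein of smooth muscle, was higher with the block (0.39 ± 0.084, FDR 0.0221). The difference between KO and WT responses passed for none of these genes, the smallest FDR with the block being 0.086 for Cnn1 and Csrp2.

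**Figure D3:**
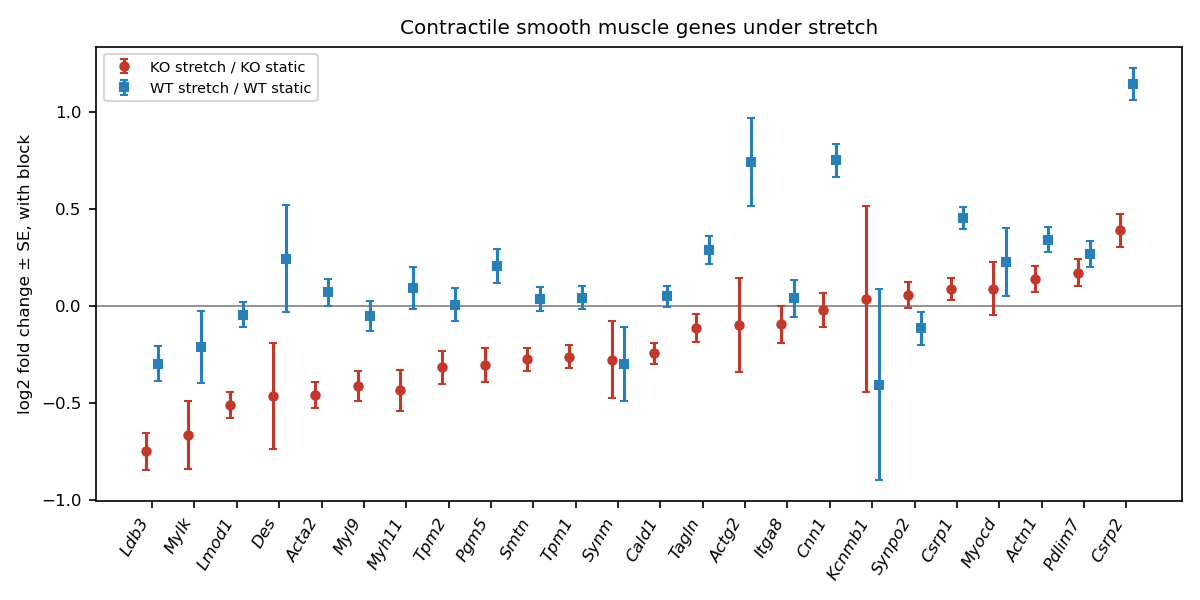
Log2 fold change ± SE with the block (vertical axis) of 24 of the 25 contractile genes, for KO stretch over KO static (red circles) and WT stretch over WT static (blue squares), ordered by the KO value. Ldb3, Mylk and Lmod1 are among the lowest in KO cells and Csrp2 the highest in both genotypes.

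Muscle genes of the striated type and caveolar genes included single falls. Mybphl, a myosin-binding protein-like gene, had 3.41, 3.62 and 2.90 CPM in KO stretch libraries, against 8.17, 8.18 and 7.89 CPM in KO static libraries (log2 fold change -1.29 ± 0.13, FDR 0.00198). Cav3, the muscle caveolin, had 1.48, 1.62 and 2.26 CPM in KO stretch libraries, against 4.22, 5.40 and 4.37 CPM in KO static libraries (log2 fold change -1.37 ± 0.21, FDR 0.0164). Of 10 caveolar genes Cav3 was the only one to pass, and all 10 had negative values with a median of -0.24, against a WT median of -0.24. Over all 14825 genes tested, 7435 had negative values. With the block Cavin1, Cavin2, Cavin4 and Pacsin2 fell too; Cavin4, a partner of Cav3 in muscle, changed by -0.74 ± 0.15 (FDR 0.0121).

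Targets of YAP and TAZ, the transcription cofactors that respond to tension, were lower where they passed. Of 29 tested, 4 fell and none rose, and 13 fell with the block; the median log2 fold change was -0.25, against -0.24 in WT cells. Amotl2, which binds and restrains YAP, had 199.8, 193 and 182 CPM in KO stretch libraries, against 340.1, 338 and 309.7 CPM in KO static libraries (log2 fold change -0.78 ± 0.10, FDR 0.00627). Ccn1, a matricellular protein, had 95.3, 98.1 and 113 CPM in KO stretch libraries, against 146, 175 and 164 CPM in KO static libraries (log2 fold change -0.66 ± 0.10, FDR 0.0164). F3, tissue factor, was low and variable: 1.57, 0.587 and 1.60 CPM in KO stretch libraries, against 3.64, 5.81 and 3.49 CPM in KO static libraries (log2 fold change -1.751 ± 0.34, FDR 0.0417). Wwc1, also called KIBRA, fell by 0.70 on the log2 scale (FDR 0.0289). Ccnd1, the cyclin of G1 phase, passed with the block (-0.41 ± 0.069, FDR 0.00497). Tead1 passed with the block as well (-0.41 ± 0.10, FDR 0.0464), but its unblocked value turned positive without KO stretch library 3.

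Immediate early genes split in direction. Of 32 tested, Dusp1 rose and Egr1 and Arc fell, all 3 lost without KO stretch library 3; with the block 4 rose and 7 fell, and the list's median log2 fold change was -0.08. Dusp1, a phosphatase that switches off MAP kinases, had 63.3, 61.0 and 66.0 CPM in KO stretch libraries, against 40.7, 40.2 and 43.7 CPM in KO static libraries (log2 fold change 0.61 ± 0.11, FDR 0.0286). Egr1, an early zinc finger factor, had 62.2, 64.3 and 69.8 CPM in KO stretch libraries, against 107, 109.7 and 110.3 CPM in KO static libraries (log2 fold change -0.74 ± 0.13, FDR 0.0256). Arc had 1.65, 2.06 and 2.24 CPM in KO stretch libraries, against 4.64, 5.03 and 6.30 CPM in KO static libraries (log2 fold change -1.43 ± 0.26, FDR 0.0312). The AP-1 members Jun and Jund rose with the block (0.38 ± 0.055 and 0.50 ± 0.065, FDR 0.00204 and 0.000966), while Klf4 and Srf, regulators of the smooth muscle state, fell with it (-0.44 ± 0.075 and -0.40 ± 0.085, FDR 0.00552 and 0.0203).

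TGF-beta response genes gave 1 rise and 1 fall of 25 tested, with a median log2 fold change of -0.03. Pmepa1, a feedback inhibitor of the pathway, had 123.2, 125 and 151 CPM in KO stretch libraries, against 78.8, 85.5 and 95.2 CPM in KO static libraries (log2 fold change 0.62 ± 0.12, FDR 0.0448). With the block the receptor Tgfbr2 and the signal transducer Smad3 fell (-0.41 ± 0.058 and -0.33 ± 0.076, FDR 0.00167 and 0.0302). Among focal adhesion genes, Ptk2, focal adhesion kinase, rose and Lims2 fell of 35 tested. Ptk2 had 149, 149 and 152 CPM in KO stretch libraries, against 110.2, 117 and 105 CPM in KO static libraries (log2 fold change 0.44 ± 0.086, FDR 0.0437). The cytoplasmic actins Actb and Actg1 fell with the block (-0.29 ± 0.051 and -0.27 ± 0.047, FDR 0.00635 and 0.00635).

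Clock genes moved with the block in both directions. Of 19 tested, Cry1, a repressor of the clock, rose: 7.50, 6.80 and 7.04 CPM in KO stretch libraries, against 3.69, 4.91 and 3.67 CPM in KO static libraries (log2 fold change 0.80 ± 0.15, FDR 0.0378). With the block 3 rose and 5 fell. Arntl, which codes for the activator BMAL1, rose (0.43 ± 0.09, FDR 0.0181), and its output genes Dbp, Per3 and Nr1d1 fell (-0.59 ± 0.072, -0.61 ± 0.091 and -0.47 ± 0.10, FDR 0.000668, 0.00231 and 0.0203). Of 23 antioxidant targets of NRF2 tested, 21 had negative values, against 7435 of all 14825 genes tested. The list's median log2 fold change was -0.21 in KO cells and -0.10 in WT cells. Txnrd1, thioredoxin reductase, fell (-0.37 ± 0.07, FDR 0.0401) but did not pass on unique reads (FDR 0.0507). With the block 6 fell, among them Hmox1, heme oxygenase (-0.61 ± 0.081, FDR 0.00111).

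Few matrix genes passed the test. None of 22 collagens and none of 23 elastic fibre and crosslinking genes passed without the block, which added 2 falls (Col11a1 and Col14a1) and 2 rises (Loxl1 and Loxl2). The collagen median log2 fold change was -0.08, and the elastic fibre median 0.00 (-0.003). Loxl2, a lysyl oxidase of collagen crosslinking, changed by 0.45 ± 0.076 (FDR 0.00539 with the block). Postn and Tnc, matricellular proteins, rose with the block (0.48 ± 0.068 and 0.30 ± 0.067, FDR 0.00184 and 0.0265). No gene passed among 34 cell cycle, 20 p53 target, 29 ion channel and mechanosensor, 27 unfolded protein response, 21 interferon response and 13 mitochondrially encoded genes. With the block the cell cycle list gave 4 falls (Ccnd1, Plk1, Rrm2 and Foxm1), and p53 targets 1 rise and 2 falls. In that fit channels gave 2 rises (Piezo2 and Pkd2) and 1 fall (Itpr1). The unfolded protein response gave 1 rise (Hspa5) and 1 fall (Trib3), and interferon 1 rise (Ifi44). Over all genes tested, 1.41% rose and 3.02% fell with the block. Piezo2, a stretch-gated channel, had 34.5, 31.0 and 13.9 CPM in KO stretch libraries, against 21.9, 23.3 and 11.8 CPM in KO static libraries, with library 3 below the others in both conditions (0.48 ± 0.42, FDR 0.98 without and 0.43 ± 0.10, FDR 0.0309 with the block).

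Genes that passed only with the block numbered 538, of which 360 fell and 178 rose. Their median absolute log2 fold change was 0.39, against 0.75 for the 118. Filip1l, which restrains cell migration, was the largest of the rises named here that passed only with the block. It had 195, 208 and 125 CPM in KO stretch libraries, against 86.2, 88.9 and 48.0 CPM in KO static libraries. Library 3 was lowest in both conditions. The log2 fold change of Filip1l was 1.24 ± 0.27, FDR 0.0825 without and 1.26 ± 0.08, FDR 2.08e-05 with the block. Deptor, an inhibitor of mTOR, changed by -1.01 ± 0.079, and Npr3, the natriuretic peptide clearance receptor, by -0.70 ± 0.074 (FDR 5.65e-05 and 0.000222 with the block). Creb5, a CREB family factor, and Plat, tissue plasminogen activator, were higher (0.94 ± 0.11 and 0.49 ± 0.059, FDR 0.000523 and 0.000603). Mt1, a metallothionein, was lower (-0.98 ± 0.095, FDR 0.000134), but under 1% of its reads were unique.

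Intron reads, which can come from unspliced transcripts, were tested in the same way. Their source was not tested, and all 13 mitochondrially encoded genes, which lack introns, also had enough such reads to be tested. Only 5 of 15577 genes passed (0.0321%) and 30 with the block (0.193%), with 832 at an unadjusted p under 0.05. Filip1l rose (1.16 ± 0.13, FDR 0.0145) and Fmo4 and Insig1 fell (-1.14 ± 0.14 and -1.61 ± 0.23, FDR 0.0185 and 0.041). No gene passed when WT stretch library 1, KO static library 1 or 2, or KO stretch library 1 or 2 was left out, 1 passed without each WT static library and 2 without WT stretch library 2, and 179 passed in libraries 1 and 2 alone. Of the 87 genes that fell on exon reads, 85 were tested on introns and 79 had a negative value; of the 31 that rose, 29 were tested and all 29 had a positive value, while 47.7% of all genes tested on both had a negative one. Of the 21 sterol synthesis enzymes 19 were negative on introns, with a median log2 fold change of -0.64, and 5 fell with the block, among them Hmgcs1 (-0.99 ± 0.13, FDR 0.015), Lss (-0.91 ± 0.11, FDR 0.0108) and Hsd17b7 (-1.35 ± 0.18, FDR 0.015). Lmod1 and Slco2a1 differed little on introns: -0.037 ± 0.13 and -0.20 ± 0.23, neither past the threshold.

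**Figure D4:**
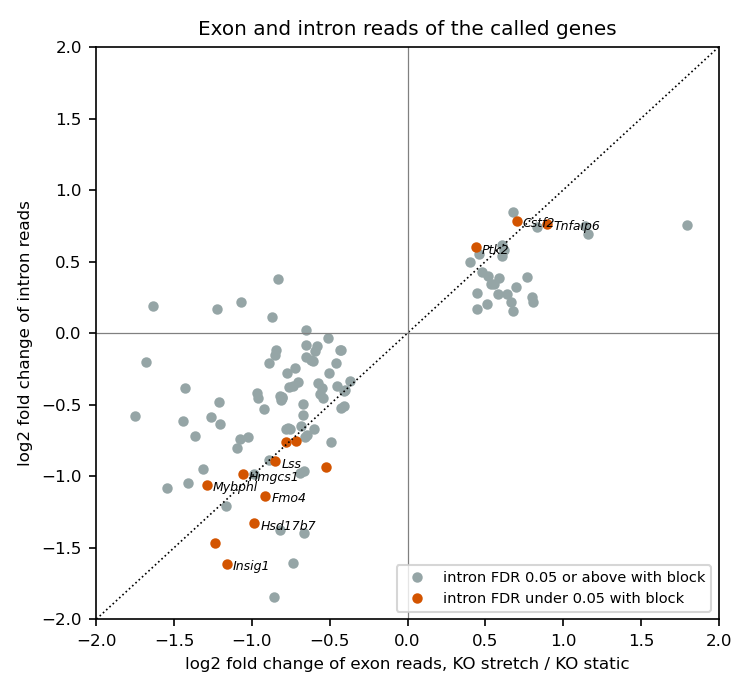
Log2 fold change of intron reads (vertical axis) against that of exon reads (horizontal axis), KO stretch over KO static, for 114 genes that changed on exon reads; orange points passed on introns with the block, and the dotted line marks equality. The 29 rises lie above 0 on both axes, and 79 of 85 falls lie below 0 on both.

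Most genes that changed in KO cells had the same sign under stretch in WT cells. Of the 118 genes, 115 had the same sign in WT cells, 52 passed there and 93 passed with the block. The shares of all genes tested that had the same sign or passed in WT cells are not given here. All groups also share 1 estimate of the spread, so these counts alone do not measure agreement between the genotypes. The falls had a median log2 fold change of -0.78 in KO and -0.58 in WT cells, and the rises 0.64 in KO and 0.54 in WT cells; since the genes were picked for passing in KO cells, larger KO values follow in part from the choice. Tnfaip6 changed by 0.90 ± 0.10 in KO and 1.70 ± 0.11 in WT cells, and Hsph1 by 0.64 ± 0.077 in KO and 0.72 ± 0.077 in WT cells. Slco2a1 changed by -1.68 ± 0.19 in KO and -0.38 ± 0.21 in WT cells. The sterol synthesis median was -0.79 in KO and -0.58 in WT cells, and all 21 enzymes had a lower log2 fold change in KO cells. The difference between the 2 responses passed the threshold for none of the 14825 genes (0.0%), with 336 at an unadjusted p under 0.05 by edgeR, 9 genes by DESeq2 and 2 with the block in edgeR (0.0135%). None of the 21 sterol enzymes passed that test in either edgeR fit, the smallest FDR with the block being 0.506. Chrnb4 and Slc10a7 were among the 3 genes of opposite sign and were named after their values were seen. Chrnb4 was barely counted in WT cells, with 0.235 ± 0.022 CPM under stretch and 0.192 ± 0.065 CPM static (SD, n = 3 each). Its WT log2 fold change was 0.24 ± 0.31, so its sign there is uncertain.

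**Figure D5:**
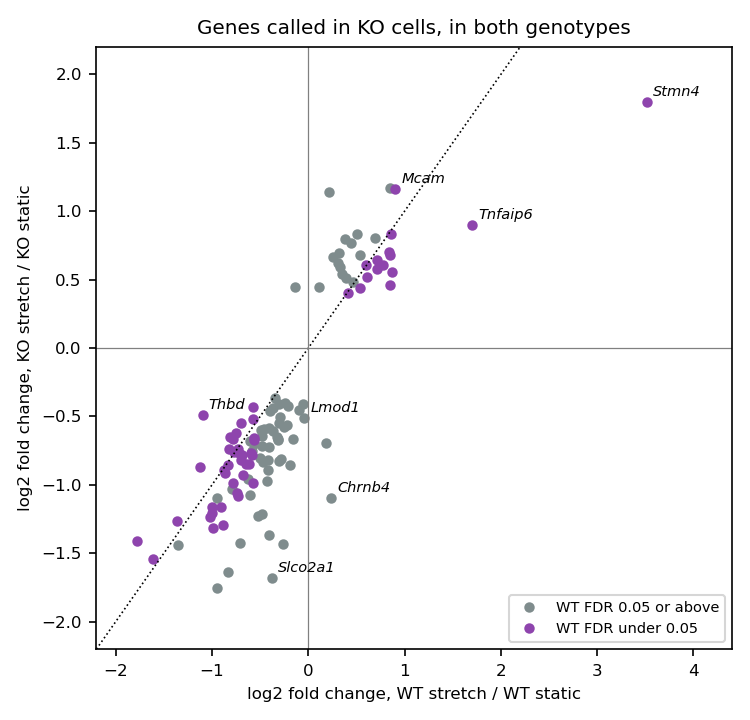
Log2 fold change under stretch in KO cells (vertical axis) against WT cells (horizontal axis) for the 118 genes that changed in KO cells; purple points passed in WT cells too, and the dotted line marks equal response. All but 3 genes lie in the lower left and upper right, and the exception Chrnb4 is labelled together with Slco2a1, Lmod1, Thbd, Mcam, Tnfaip6 and Stmn4.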

How the data were processed

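Poly(A) RNA of 12 rat libraries was sequenced with paired 36-base reads from 500 ng total RNA and a directional kit, per the labels' protocols. The authors mapped reads to Rnor_6.0 with CLC Genomics Workbench 12.0, per the labels' protocols; strandedness, trimming and the gene annotation used for counting are not given in the sources used here. The deposited counts are whole numbers of total exon, unique exon, intron and exon-junction reads per gene. The deposited RPKM values, exon reads per kilobase and 1e6 mapped reads, were used only to compare genes. The authors' deposited table of this comparison holds a signed fold change, a score in which a fall is minus the reciprocal, and an adjusted p-value.

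For total exon counts, edgeR 4.0.16 (R 4.3.3) was run with filterByExpr (minimum count 10), TMM scaling, 1 mean for each of 4 groups over all 12 libraries with 8 residual degrees of freedom, the quasi-likelihood F test, and Benjamini-Hochberg adjustment over all tested genes. All groups were fitted together so that they share 1 estimate of the spread. The standard error is the log2 fold change over the root of F, and a value beside an FDR with the block is that of the blocked fit. The steps were tested on simulated counts drawn independently for each library. These held no library-number effect, so they could not check what the block adds. Same-numbered KO stretch and KO static libraries deviated together from their group means (r = 0.249, 0.233 and 0.581 for numbers 1, 2 and 3), so fits with library number as a block stand beside the others; numbers 1 and 2 also correlated across (r = 0.305 and 0.308), and number 3 was negative against both (-0.369 to -0.427).

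Genes were named by rule: the 20 largest rises and 20 largest falls with groups that do not overlap, a proper symbol and a mean log2 CPM of at least 2; up to 8 changed members a list, or up to 4 with the block, or the 2 highest; all sterol enzymes; up to 10 in each direction with the block only, and on introns. Other genes, including further list members that passed with the block, were named after their values were seen. Members and lists were chosen with earlier results of these data known. Certain genes are counted but not reported here. A paired alternative, other scalings, filters, read columns, DESeq2 1.42.0 and each library left out were tried.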

Additional observations from a re-analysis of the deposited data

Results flagged for a closer look

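Aldh1a3, a retinaldehyde dehydrogenase, differed between genotypes in its stretch response by edgeR with library number as a block and by DESeq2 without it. It had 30.6 ± 3.28 CPM in KO stretch against 28.0 ± 3.97 CPM in KO static libraries, and 38.0 ± 4.44 CPM in WT stretch against 15.6 ± 1.05 CPM in WT static libraries (SD, n = 3 each). The KO values overlap and the WT values do not. The KO response minus the WT response was -1.15 ± 0.11 on the log2 scale (edgeR with the block, FDR 0.00357; without the block, FDR 0.827 by edgeR and 0.000215 by DESeq2). Leaving out any 1 of the 6 KO libraries kept the FDR with the block between 0.0037 and 0.0315.

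Vegfc, a growth factor of lymphatic vessels, differed likewise. It had 36.2 ± 1.79 CPM in KO stretch against 32.2 ± 3.33 CPM in KO static libraries, and 79.3 ± 1.63 CPM in WT stretch against 118 ± 6.003 CPM in WT static libraries (SD, n = 3 each). The KO response minus the WT response was 0.74 ± 0.094 on the log2 scale (edgeR with the block, FDR 0.0353; without the block, FDR 0.827 by edgeR and 0.00333 by DESeq2). Vegfc did not pass when any KO library other than KO static library 3 was left out, with the FDR with the block between 0.0385 and 0.155 over the 6 fits.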

How the results depend on the processing

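Directions were compared over all alternatives for genes that passed without or with the block, the sterol enzymes, Thbs1, Vegfc and Aldh1a3. Among these, each direction held except for Ggps1 and Tead1. Ggps1 was -0.031 without KO static library 3 (leave-one-out range to 0.25). Tead1 was 0.016 without KO stretch library 3 (leave-one-out range from -0.66). Neither passed the threshold there. Other named genes, such as Tagln and Cnn1, were not compared. Library numbers come from the titles, and whether equal numbers pair the samples is not stated in the sources used here. The replicate block gave 656 changed genes in place of 118, and 53 at least 2-fold in place of 28. It gave 2 for the KO minus WT difference in place of 0 and 30 on introns in place of 5. All 118 passed with it. Unique reads with the replicate block gave 656, 52 and 2. DESeq2 gave 294 changed genes, 47 at least 2-fold and 9 for the difference; with the block, an alternative chosen after seeing the data, it gave 898 and 59. Genes without a low-count filter numbered 76. The 6 KO libraries alone gave 0 changed, 0 at least 2-fold and 0 sterol enzymes, and with the block 757 and 53. Libraries numbered 1 and 2 gave 439, 57, 3 for the difference and 179 on introns. Leaving out 1 library gave 24 to 122 changed genes, 12 to 26 at least 2-fold, 7 to 14 sterol enzymes, 0 to 6 on introns and 0 for the difference each time. With the block, leaving out a KO library, also chosen after seeing the data, gave 523, 310 and 331 changed genes without KO static 1, 2 and 3, and 324, 340 and 415 without KO stretch 1, 2 and 3. In these 6 fits 35 to 55 genes were at least 2-fold (49 without KO static 1; 43, 44 and 55 without KO stretch 1, 2 and 3), 18 to 19 sterol enzymes fell, and 1 to 3 genes passed for the difference. Scaling by upper quartile or relative log expression gave 88 and 111. The cause of these differences was not tested.

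Depth limits low genes. Among the calls named here, F3, Cav3, Arc, Mybphl, Depp1, Emp2, Tlcd2, Cry1, Chrnb4 and Stmn4 are examples with under 10 CPM in every KO library. Slco2a1, Fmo2, Cilp, Nlrp3 and Bmp3 had under 10 CPM in every KO stretch library. Under 50% of the reads of Mt1, Insig1, Hsd17b7, Ppid, Depp1 and Angptl2 were unique. Their total counts therefore rest on the authors' placing of shared reads.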
